A study of Homo sapiens with 96 samples.

Results

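Frame-keeping cassette exons with long introns are internal exons that can be joined into the mRNA or left out of it (skipped exon events, SE), whose length is 28 to 300 nt and divisible by 3, and which have at least 1 neighbouring intron of more than 500 nt. Lengths and introns were read from the event coordinates of the 8 deposited splicing tables, and the rule itself uses no inclusion value. It took in 57294 of the 164617 SE events, on 32773 distinct exons of 10654 genes, with 30402 to 34260 events in a single table. The remaining SE events were 87958 on frame-shifting exons with long introns, 10730 on exons between short introns, 7147 on longer exons, and 1488 on microexons. An exon joined to different neighbours gives several events, up to 21 on 1 exon, and these share reads.

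Poly(A)-RNA seq was read from A549 cells, an established human lung adenocarcinoma line, in 10 groups of 3 libraries each. GSK591 at 1 µM, which inhibits PRMT5, and MS023 at 1 µM, which inhibits Type I protein arginine methyltransferases (PRMTs), were each given for 2, 4, or 7 days, and both together at 1 µM each for 2 or 4 days. Solvent controls received 0.01% DMSO for 4 or 7 days. The 2-day and the 4-day inhibitor groups were compared with the same 4-day DMSO libraries, so day of harvest and inhibitor cannot be told apart at 2 days, and these 6 comparisons share their controls. The 7-day groups were compared with the 7-day DMSO libraries. The labels do not say that the 3 libraries of a group came from separate cultures, so the p-values below measure the spread between libraries, which may be technical.

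Splicing removes introns from the primary transcript, and a cassette exon is kept when the splice sites at both of its ends are recognised. Where its length is a multiple of the codon size, keeping or skipping it leaves the downstream reading frame as it was, so that the 2 mRNAs can encode proteins that differ by an internal segment. Type I PRMTs place asymmetric and PRMT5 symmetric dimethyl marks on arginines, and RNA-binding proteins and the Sm proteins of the spliceosome are among their best known substrates.

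The sequences of 8 exons on which the following results turn are given from GRCh37, the build of the tables, 5′ to 3′ on the strand of the gene. Capitals mark the exon and lower case the 25 nt of intron before it and the 10 nt after it. Each is annotated as coding over its whole length, and none holds a stop codon in its annotated frame. SUN1 and BIN1 were chosen to show exons that fell with both inhibitors. CLSTN1 shows one that fell further with both inhibitors together than with either alone, and SEC31A and SRRM1 exons that rose. MAP3K7, APP and RAB11FIP3 show exons that moved in opposite directions with GSK591 and MS023. Some of these calls were lost without 1 library, as given below, among them each MS023 call of BIN1 and 1 call of APP on each day.
SUN1, chr7:889560-889670, + strand: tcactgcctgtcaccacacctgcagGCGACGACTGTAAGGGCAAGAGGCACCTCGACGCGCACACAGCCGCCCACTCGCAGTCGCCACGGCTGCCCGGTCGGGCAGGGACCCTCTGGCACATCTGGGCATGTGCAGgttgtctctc
BIN1, chr2:127808730-127808819, - strand: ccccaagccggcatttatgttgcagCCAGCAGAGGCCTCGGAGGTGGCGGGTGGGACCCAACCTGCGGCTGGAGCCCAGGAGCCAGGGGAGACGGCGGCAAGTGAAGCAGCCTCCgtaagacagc
CLSTN1, chr1:9797556-9797612, - strand: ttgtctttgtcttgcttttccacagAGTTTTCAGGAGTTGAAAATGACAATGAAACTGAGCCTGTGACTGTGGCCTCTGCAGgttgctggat
SEC31A, chr4:83752090-83752128, - strand: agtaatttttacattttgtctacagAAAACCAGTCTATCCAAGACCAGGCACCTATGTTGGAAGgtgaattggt
SRRM1, chr1:24989674-24989715, + strand: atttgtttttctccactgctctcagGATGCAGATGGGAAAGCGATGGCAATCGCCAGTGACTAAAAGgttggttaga
MAP3K7, chr6:91254271-91254351, - strand: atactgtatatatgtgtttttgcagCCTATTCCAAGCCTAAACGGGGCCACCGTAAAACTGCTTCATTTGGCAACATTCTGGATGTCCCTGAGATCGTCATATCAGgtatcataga
APP, chr21:27369675-27369731, - strand: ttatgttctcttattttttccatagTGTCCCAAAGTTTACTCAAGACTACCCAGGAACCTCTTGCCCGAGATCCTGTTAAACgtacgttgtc
RAB11FIP3, chr16:541134-541268, + strand: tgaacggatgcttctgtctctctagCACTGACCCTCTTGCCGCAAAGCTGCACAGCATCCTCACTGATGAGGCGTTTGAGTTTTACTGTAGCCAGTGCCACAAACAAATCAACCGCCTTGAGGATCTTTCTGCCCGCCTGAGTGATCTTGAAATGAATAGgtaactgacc

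Of the 32773 member exons, 81.1% were annotated as coding over their whole length, against 73.8% of frame-shifting exons with long introns. A further 4.06% were untranslated exons of coding transcripts and 3.69% were partly coding. Another 10.6% were found only in transcripts not typed as protein-coding, whose coding sequence, where annotated, was not read. The frame thus matters for most but not all members. Among the whole coding members, 58.5% began at the first base of a codon, against 39.2% of the frame-shifting exons. The median member was 117 nt long, with a median intron of 3001 nt before it and 2672 nt after it, and both introns were long in 44163 events. Of the introns beside members, 98.945% began with GT and ended with AG in the reference.

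Inclusion was measured as Ψ, the share of transcripts that contain the exon, from the inclusion and skipping reads of each library, each divided by the effective length of its form. ΔΨ is the mean Ψ of the inhibitor libraries minus that of the DMSO libraries, and is given ± the standard error of the difference (n = 3 and 3). Bulk RNA cannot tell a switch in some cells from a partial shift in all of them. Read counts summed over SE events were 45420420 to 97845379 per library, and those over members 16326534 to 33667916. A read is counted again in each event it supports. The sums of the DMSO groups take in events of several comparisons, so they do not compare depth between groups. Libraries of a group differed by 1.81 to 2.72 times the sampling variance. Reads of KRT7, KRT8, NQO1, AKR1B10, AKR1C1 and ALDH1A1, epithelial or A549 markers, were abundant on SE events in every library. Of the other epithelial markers CDH1 had 181 to 965 reads per library. EPCAM and KRT18, with 4 SE events each, had libraries with 0 reads and medians of 31 and 39308 reads. KRT19 had no SE event. PTPRC, PECAM1, CD3E, DES and COL1A1, markers of other cells, also had no SE event, so that these tables do not bear on their level, and VWF had at most 3 reads in a library.

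Most members were nearly always included. With DMSO at 4 days, 79.1% of the 28052 members tested against GSK591 at 4 days had Ψ over 0.9. Events were tested where each of the 6 libraries held at least 10 reads, and an event was called at an adjusted p under 0.05 in a quasi-binomial model with Benjamini-Hochberg adjustment over all SE events. Of the 57294 member events, 46538 were tested in at least 1 comparison with DMSO and 10756 in none. Of the 32773 exons, taken by their best covered event, 28607 were tested at least once. Inclusion changed in at least 1 of the 8 comparisons for 6125 of them (21.4%, against 21.0% of all SE exons tested at least once), in 4008 genes. It changed in all 8 for 48 of the 12390 exons tested in all 8 (0.387%, against 0.437% of all SE exons). Both shares lay near those of all SE exons.

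GSK591 lowered inclusion more often than it raised it at 2 and 4 days. At 2 days 1875 of 27024 members were called (6.94%, against 7.16% of all SE events), with 371 higher (background 1.34%) and 1504 lower (background 5.82%). At 4 days 2879 of 28052 were called (10.3%, against 10.6%), with 765 higher (background 2.52%) and 2114 lower (background 8.07%). At 7 days 2060 of 24703 were called (8.34%, against 8.55%), with 979 higher (background 3.59%) and 1081 lower (background 4.96%). The shares of members called thus lay near those of all SE events on each day, and the counts are not particular to frame-keeping exons.

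MS023 changed fewer members. At 2 days 1057 of 27761 were called (3.81%, against 3.67% of all SE events), of which 317 were higher (background 1.04%) and 740 lower (background 2.63%). At 4 days 1258 of 27865 were called (4.51%, against 4.28%), of which 454 were higher (background 1.5%) and 804 lower (background 2.77%). At 7 days 1308 of 25418 were called (5.15%, against 4.95%), of which 671 were higher (background 2.48%) and 637 lower (background 2.47%).

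Co-treatment gave the largest counts of the 8 comparisons. After 2 days 3869 of 28542 members were called (13.6%, against 13.8% of all SE events), 682 of them higher (background 2.32%) and 3187 lower (background 11.5%). After 4 days 4131 of 28318 were called (14.6%, against 14.6%), 1201 of them higher (background 4.01%) and 2930 lower (background 10.6%). The shift of called members was modest in size, with a median ΔΨ of -0.0727 among those lower and 0.0788 among those higher after 4 days, and 1707 of them moved by at least 0.1. These counts rest on the moderation of the dispersion across events: limma on the log2 odds of inclusion called 0, 297 and 44 members for GSK591 at 2, 4 and 7 days, 0, 1 and 0 for MS023, and 972 and 1255 for co-treatment, although 3168, 2169 and 2577 members had an unadjusted p under 0.05 by limma in the 3 comparisons with a count of 0. Leaving out any 1 library also lowered every count, to between 2104 and 2859 for 4-day co-treatment and to between 203 and 780 for MS023 at 2 days.

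**Figure D1:**
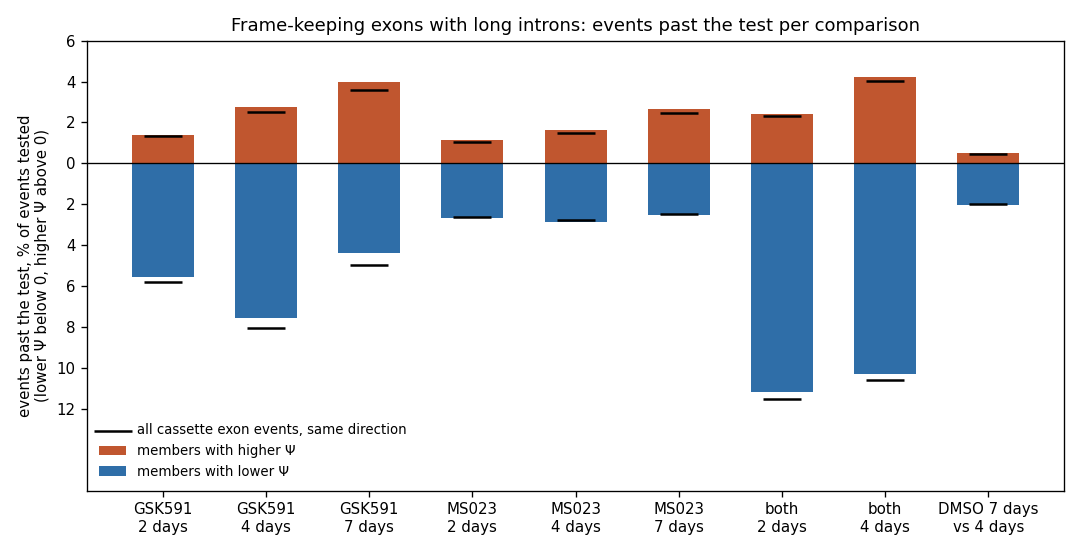
Share of tested member events that passed the test, in percent, with higher Ψ drawn upwards and lower Ψ downwards, for the 8 comparisons with DMSO and for DMSO at 7 against 4 days. Black lines give the share of all SE events in the same direction and lie close to the bars, as for 4-day co-treatment with 10.3% of members and 10.6% of all events lower.

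The direction of the called members differed with time. Of those called with GSK591, 19.8% were higher at 2 days, 26.6% at 4 days and 47.5% at 7 days, and with MS023 30.0%, 36.1% and 51.3%. Over all SE events the GSK591 shares rose as well, with 18.7%, 23.8% and 42.0%. For frame-shifting exons with long introns the MS023 shares were 29.2%, 35.6% and 51.1%. The rise with time is thus not particular to members. With 1 library left out the GSK591 share of members stayed between 16.4% and 19.7% at 2 days and between 44.2% and 50.5% at 7 days. Some members also differed between the controls. Between the DMSO libraries of 7 and 4 days 662 of 26324 members were called (2.51%, against 2.45% of all SE events), of which 127 were higher (background 0.46%) and 535 lower at 7 days (background 1.99%). The part of this control shift in the day 7 shares was not tested. The labels name no batch, so that day and any batch cannot be told apart in it. The 7-day against 4-day DMSO count fell to 51 without the first 7-day DMSO library and to 466 without the third 4-day one. It also depended on the fit. When the dispersion was moderated, events without a skipping read, or without an inclusion read, had been left out. Below, events without a skipping read stand for both kinds. The choice was made after the counts were seen, and with these events kept in 0 members were called (1465 at an unadjusted p under 0.05). The count was also 0 with limma (3751 unadjusted) and without moderation (1147 unadjusted). The DMSO differences of single exons between 7 and 4 days given below rest on the same choice, and with such events kept in none of them was called (adjusted p = 0.73 for CLSTN1, SEC31A, APP and APLP2).

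Exons with intermediate inclusion in DMSO were called most often. With GSK591 at 4 days 35.2% of members with a DMSO Ψ of 0.1 to 0.5 and 25.9% of those with 0.5 to 0.9 were called, against 16.9% below 0.1 and 6.59% above 0.9. The last class still held 1463 of the 2879 calls because of its size, and 1219 of these were lower. The same order of the 4 classes was seen in the 8 comparisons, with 43.7% and 10.2% as the extremes for 4-day co-treatment. These shares were not computed over all SE events, so the order is not shown to be particular to members. For GSK591 at 4 days only 6691 of the 28052 tested members averaged at least 5 reads of each form. The part of read numbers in the order was not tested. With GSK591 at 4 days the members called higher had a median DMSO Ψ of 0.670 and those called lower one of 0.943.

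**Figure D2:**
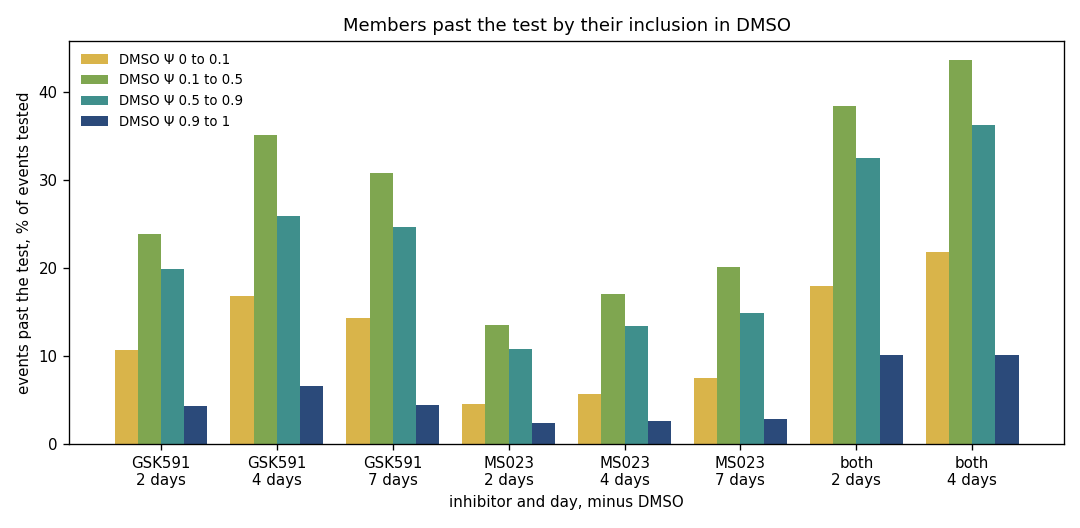
Share of tested member events that passed the test, in percent, for 4 classes of mean Ψ in the DMSO libraries, in each of the 8 comparisons with DMSO. In each comparison the class of 0.1 to 0.5 has the tallest bar, and for GSK591 at 4 days it reaches 35.2% against 6.59% for the class above 0.9. Shares of all SE events by class were not computed.

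SUN1, which spans the inner nuclear membrane and links the nucleus to the cytoskeleton, had the largest fall with GSK591 at 2 days among the exons named here. Its exon of 111 nt had Ψ of 0.723, 0.734 and 0.750 in the 4-day DMSO libraries, 0.290, 0.199 and 0.304 after 2 days of GSK591, and 0.205, 0.163 and 0.162 after 4 days. With co-treatment Ψ was 0.123, 0.143 and 0.104 at 2 days and 0.068, 0.076 and 0.104 at 4 days. Every treated library lay far below every DMSO library, and the co-treated ones were lowest. ΔΨ was -0.472 ± 0.034 (adjusted p = 6e-15, quasi-binomial model) for GSK591 at 2 days and -0.653 ± 0.013 (adjusted p = 8.5e-23) for 4-day co-treatment. MS023 alone gave a smaller fall, with Ψ of 0.521, 0.537 and 0.557 at 4 days (ΔΨ -0.198 ± 0.013, adjusted p = 3.6e-09). At 2 days the fall with MS023 (-0.143, adjusted p = 4.6e-05) lost its call without the third MS023 library (adjusted p = 0.059), and at 7 days the MS023 and DMSO libraries overlapped.

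BIN1, a membrane-bending protein of endocytosis, was among the exons called lower in all 8 comparisons. Its exon of 90 nt had Ψ of 0.817, 0.672 and 0.698 with 4-day DMSO against 0.270, 0.277 and 0.288 with 4 days of GSK591, and 0.856, 0.859 and 0.800 with 7-day DMSO against 0.248, 0.291 and 0.315 with 7 days of GSK591. No GSK591 library reached a DMSO library on either day. ΔΨ was -0.451 ± 0.045 (adjusted p = 2.8e-14) at 4 days and -0.554 ± 0.027 at 7 days, also called. A second event joins the same exon to a more distant upstream exon, and its 7-day Ψ fell from 0.725, 0.634 and 0.671 to 0.444, 0.470 and 0.345. With MS023 the falls were smaller (-0.170, -0.196 and -0.127 at 2, 4 and 7 days) and each lost its call when 1 of several libraries was left out, the first 4-day and the first 7-day DMSO library among them.

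CLSTN1, calsyntenin 1, a membrane protein that links cargo to kinesin, responded most to co-treatment. The Ψ of its exon of 57 nt was 0.690, 0.718 and 0.683 in the 4-day DMSO libraries, 0.405, 0.407 and 0.330 with 4 days of GSK591, 0.546, 0.583 and 0.595 with MS023, and 0.073, 0.065 and 0.114 with both. The 4 groups did not overlap. Co-treatment was lower than GSK591 alone (ΔΨ -0.297 ± 0.029) and than MS023 alone (ΔΨ -0.491 ± 0.021), and both differences were called. The former lost its call when events without a skipping read were kept in the moderation (adjusted p = 0.1), and the latter kept it (adjusted p = 0.0094). The 7-day DMSO libraries, at 0.372, 0.395 and 0.535, were also below those of 4 days (ΔΨ -0.263 ± 0.052, adjusted p = 1.5e-16), so that the 7-day GSK591 libraries, at 0.511, 0.511 and 0.580, gave a ΔΨ of 0.100. That call overlapped with the controls and was lost without any 1 of 5 libraries.

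SEC31A, an outer coat protein of COPII transport vesicles, showed the largest rise with co-treatment at 4 days among the exons named here. Its exon of 39 nt had Ψ of 0.204, 0.237 and 0.202 with 4-day DMSO, 0.291, 0.358 and 0.359 with GSK591, 0.387, 0.382 and 0.504 with MS023, and 0.849, 0.842 and 0.919 with both. The order of these groups held for every library. ΔΨ was 0.122 ± 0.025 (adjusted p = 0.0016) for GSK591, 0.210 ± 0.041 (adjusted p = 5.2e-08) for MS023 and 0.656 ± 0.027 (adjusted p = 4.4e-20) for both. The call for GSK591 was lost without the third 4-day GSK591 library (adjusted p = 0.06). In DMSO Ψ was higher at 7 days, with 0.465, 0.483 and 0.337 (ΔΨ 0.214 ± 0.047 against 4 days, adjusted p = 1.8e-07).

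SRRM1 encodes an SR-related coactivator of splicing. Its exon of 42 nt had Ψ of 0.464, 0.475 and 0.528 with 4-day DMSO, and rose to 0.596, 0.592 and 0.603 with GSK591, to 0.740, 0.736 and 0.737 with MS023 and to 0.657, 0.723 and 0.709 with both at 4 days. The MS023 libraries were the highest. ΔΨ was 0.249 ± 0.020 (adjusted p = 9.9e-15) for MS023 at 4 days and 0.306 ± 0.048 (adjusted p = 2.3e-22) at 7 days. GSK591 at 2 days, with 0.512, 0.424 and 0.393, overlapped with DMSO and was not called.

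Other exons were called in 1 direction in all 8 comparisons. In CALD1, caldesmon, an actin-binding protein, the Ψ of an exon of 78 nt was 0.094, 0.086 and 0.081 with 4-day DMSO and 0.298, 0.345 and 0.314 with 4-day co-treatment (ΔΨ 0.232 ± 0.014, adjusted p = 1.2e-16). The 8 rises ranged from 0.039 with GSK591 at 7 days, a call lost without the second or the third 7-day DMSO library (adjusted p up to 0.088), to 0.232. In PVR, an adhesion molecule of the nectin family, the Ψ of an exon of 159 nt rose from 0.816, 0.818 and 0.860 to 0.971, 0.980 and 0.986 with 4 days of GSK591 (ΔΨ 0.148 ± 0.015, adjusted p = 5.9e-14). Its MS023 rises of 0.064, 0.071 and 0.087 at 2, 4 and 7 days lost their calls when 1 library was left out: the second 4-day DMSO library or either of 2 MS023 libraries at 2 and 4 days, and the third MS023 library at 7 days.

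Exons lower in all 8 comparisons included those of KIAA1191 (87 nt, partly coding), FN1 and ALG2. The KIAA1191 exon had Ψ of 0.837, 0.839 and 0.814 with 4-day DMSO and 0.429, 0.455 and 0.441 with 4-day co-treatment (ΔΨ -0.388 ± 0.011, adjusted p = 1.2e-16), with all treated libraries below all controls in each comparison. FN1 encodes fibronectin of the extracellular matrix. Its exon of 270 nt had Ψ of 0.534, 0.550 and 0.573 with 4-day DMSO and 0.396, 0.385 and 0.405 with GSK591 (ΔΨ -0.158 ± 0.013, adjusted p = 2.6e-10). The exon of ALG2, a mannosyltransferase of N-glycan synthesis, was found only in transcripts not typed as protein-coding. It fell by 0.185 ± 0.025 with 4-day co-treatment from Ψ of 0.245, 0.303 and 0.292 (adjusted p = 2.8e-10). Its smaller fall with MS023 at 2 days (-0.091) was lost without any 1 of 4 libraries.

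**Figure D3:**
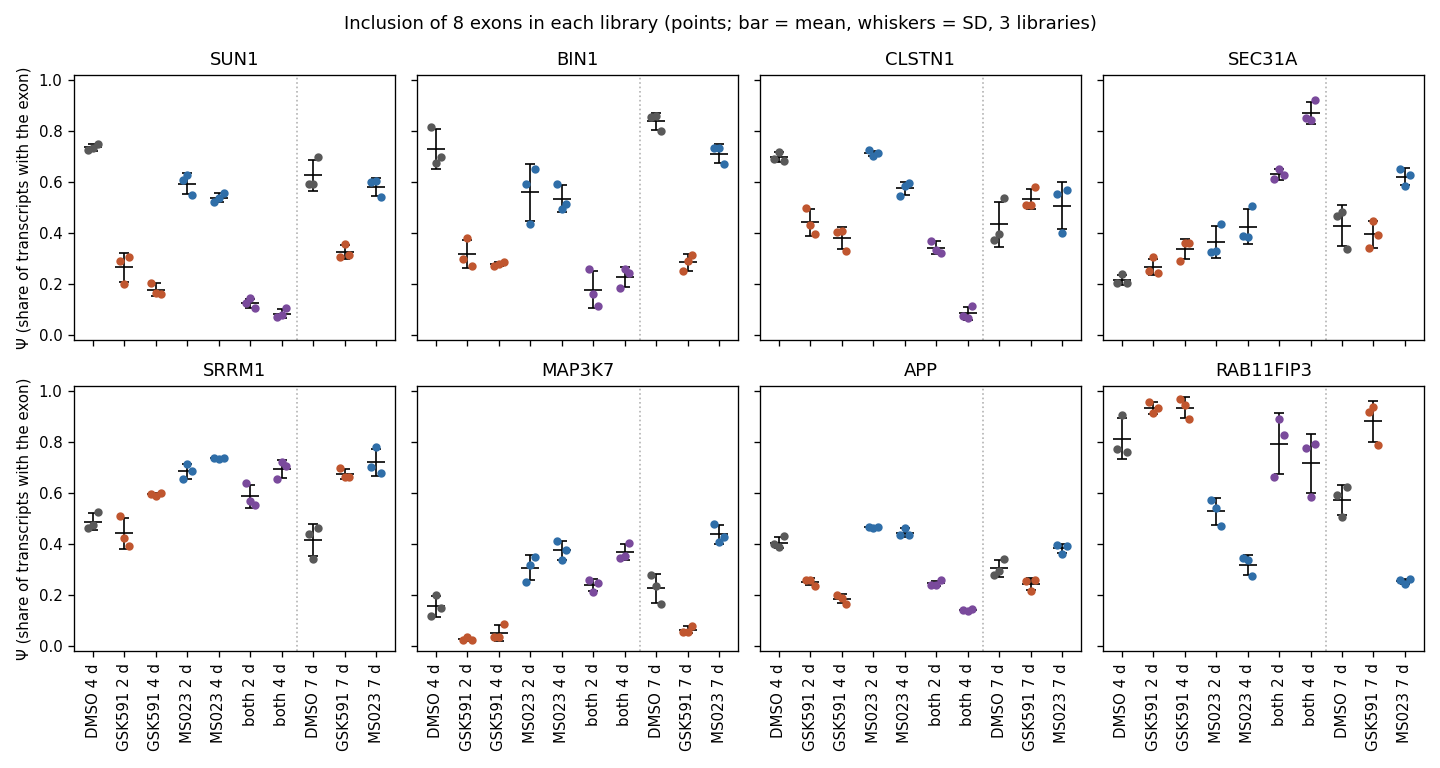
Ψ of 8 member exons in each library (points), with the mean (horizontal bar) and SD (whiskers) of the 3 libraries of each group; a dotted line separates the 7-day groups, which have their own DMSO libraries. Co-treatment at 4 days takes SUN1 and CLSTN1 below 0.12 and SEC31A above 0.84. MAP3K7, APP and RAB11FIP3 move in opposite directions with GSK591 and MS023. Both of their calls held without any 1 library at 7 days only for MAP3K7 and RAB11FIP3, and on no day for APP.

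Some members moved in opposite directions with the inhibitors. Counted were events called against DMSO with both inhibitors on a day, with opposite signs, and called again when GSK591 was tested directly against MS023. There were 106 of 22558 members tested in all 3 comparisons at 2 days (0.47%, against 0.409% of all SE events), 178 of 22884 at 4 days (0.778%, against 0.67%) and 167 of 20785 at 7 days (0.803%, against 0.786%). GSK591 was the lower in 76, 118 and 105 of them, and over all SE events in 163 of 259, 284 of 431 and 288 of 460. With events without a skipping read kept in the moderation, 43, 120 and 62 of these stayed called, and limma, which called at most 1 member for MS023 on a day, called none of them in all 3 comparisons. GSK591 and MS023 differed directly in 2270 of 22663 members at 2 days (10.0%, against 10.1% of all SE events), 836 of them higher with GSK591 (background 3.51%) and 1434 lower (background 6.61%). At 4 days they differed in 3146 of 23060 (13.6%, against 13.9%), 1192 higher (background 4.85%) and 1954 lower (background 9.06%). At 7 days they differed in 2405 of 20973 (11.5%, against 11.6%), 1162 higher (background 5.08%) and 1243 lower (background 6.56%). The direct counts were 87, 371 and 109 with events without a skipping read kept in.

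MAP3K7 encodes TAK1, a kinase of the TGF-β and NF-κB pathways, and its exon of 81 nt fell with GSK591 and rose with MS023 on each day. Ψ was 0.119, 0.202 and 0.149 with 4-day DMSO, 0.036, 0.035 and 0.087 with 4 days of GSK591, and 0.413, 0.339 and 0.379 with MS023, without overlap between the groups. ΔΨ was -0.104 ± 0.030 (adjusted p = 0.00015) and 0.220 ± 0.032 (adjusted p = 1.2e-09), and the direct difference was -0.324 ± 0.028 (adjusted p = 2e-20). Co-treatment, with 0.348, 0.356 and 0.407, lay above GSK591 (ΔΨ 0.318 ± 0.025, adjusted p = 9.2e-26) and among the MS023 libraries (ΔΨ -0.007 ± 0.028). With events without a skipping read kept in the moderation, the direct difference stayed called (adjusted p = 0.033) and that of co-treatment from GSK591 did not (adjusted p = 0.11). The 4-day GSK591 call was lost without the first GSK591 library (adjusted p = 0.055), and the 2-day MS023 call without the third MS023 library (adjusted p = 0.13).

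APP, the amyloid precursor protein, had at least 1773 reads on its exon of 57 nt in each library. Ψ was 0.401, 0.388 and 0.432 with 4-day DMSO, 0.203, 0.189 and 0.167 with GSK591, 0.437, 0.465 and 0.436 with MS023 and 0.141, 0.140 and 0.148 with both. Here co-treatment was lower than GSK591 alone (ΔΨ -0.043 ± 0.011, adjusted p = 3.5e-06) and than MS023 alone (ΔΨ -0.303 ± 0.010, called), of which the former lost its call with events without a skipping read kept in (adjusted p = 0.3). The rise with MS023 was small at 4 days (ΔΨ 0.039 ± 0.016, adjusted p = 0.004) and lost its call without any 1 of 5 libraries, that at 2 days without the third MS023 library (adjusted p = 0.055), and the 7-day fall with GSK591 (-0.062) without the third 7-day DMSO library (adjusted p = 0.057). In its relative APLP2 the exon of 168 nt went from 0.254, 0.274 and 0.285 with 7-day DMSO to 0.107, 0.114 and 0.123 with GSK591 and to 0.397, 0.405 and 0.396 with MS023. The 3 groups were far apart, with ΔΨ of -0.156 ± 0.010 and 0.128 ± 0.009. APP differed between the DMSO days as well (ΔΨ -0.101 ± 0.023, adjusted p = 1.2e-17), and so did APLP2 (ΔΨ -0.082 ± 0.012, adjusted p = 1.3e-13).

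RAB11FIP3, a Rab11 partner in recycling endosomes, moved the other way. The exon of 135 nt had Ψ of 0.592, 0.509 and 0.624 with 7-day DMSO, 0.918, 0.938 and 0.792 with GSK591 and 0.259, 0.244 and 0.264 with MS023. No library of one group entered the range of another. ΔΨ was 0.308 ± 0.057 (adjusted p = 9.4e-11) and -0.319 ± 0.035 (adjusted p = 4.5e-14). At 2 and 4 days the GSK591 rises of 0.122 were lost without any 1 of 5 libraries, while the 4-day fall with MS023 was -0.495 ± 0.052 (adjusted p = 8.2e-22). CD44, the hyaluronan receptor, gave a small change of this kind, from 0.035, 0.031 and 0.034 with 7-day DMSO to 0.117, 0.093 and 0.104 with GSK591 (ΔΨ 0.071 ± 0.007) and to 0.019, 0.012 and 0.019 with MS023 (ΔΨ -0.017 ± 0.002, adjusted p = 3e-05) for an exon of 204 nt.

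Comparisons of 4-day and 7-day groups share no library, since each day has its own DMSO controls. Of the members tested in both, 1006 were called with GSK591 at 4 and at 7 days, which is 37.2% of the 4-day and 50.4% of the 7-day calls. Of these 945 had the same direction (93.9%, against 96.1% of all SE events). Over all SE events the overlap was 38.4% and 52.1%. With MS023 537 were called on both days (44.8% and 41.6%, against 43.5% and 40.1% of all SE events). Of these 535 had the same direction (99.6%, against 99.3%). Across the inhibitors the directions depended on the days paired. Between GSK591 at 4 days and MS023 at 7 days 474 were called in both (17.8% and 37.6%, against 16.5% and 37.7%), of which 350 had opposite directions (73.8%, against 69.2%). Between MS023 at 4 days and GSK591 at 7 days 364 were called in both (31.0% and 18.4%, against 31.0% and 16.9%), of which 210 had the same direction and 154 opposite ones (42.3%, against 43.0%). The overlaps of members lay close to those of all SE events. Opposite directions between the GSK591 days were seen in 6.06% of the shared members and 3.86% of all shared SE events. That difference was not tested. The 61 GSK591 events that changed direction between days included the exon of CLSTN1 above and that of ZNF207, a zinc finger protein of the mitotic spindle. The ZNF207 exon of 48 nt had Ψ of 0.779, 0.823 and 0.805 with GSK591 and 0.893, 0.903 and 0.890 with DMSO at 4 days (ΔΨ -0.093 ± 0.013, adjusted p = 1.8e-09), and 0.902, 0.909 and 0.871 against 0.806, 0.854 and 0.828 at 7 days (ΔΨ 0.065 ± 0.018, adjusted p = 1.4e-05). The groups did not overlap on either day. The 7-day rise of ZNF207 was lost without the first or the third 7-day DMSO library (adjusted p up to 0.089).

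**Figure D4:**
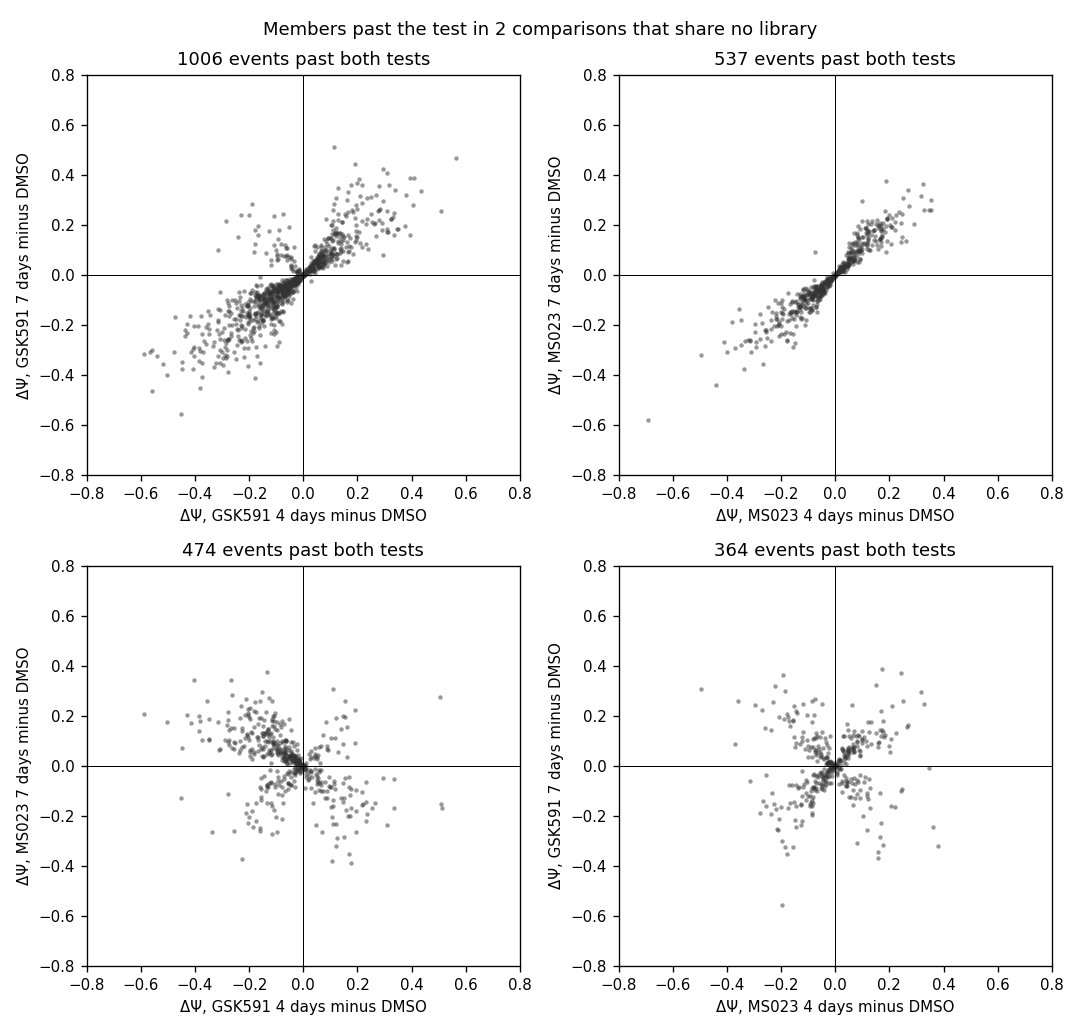
ΔΨ of member events that passed the test in both of 2 comparisons that share no library, with 1 point per event. Most of the 1006 events for GSK591 at 4 and 7 days and all but 2 of the 537 for MS023 lie in the quadrants of equal sign. In those of opposite sign lie 350 of the 474 events for GSK591 at 4 days and MS023 at 7 days, but 154 of the 364 for MS023 at 4 days and GSK591 at 7 days.

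Adding MS023 to GSK591 changed fewer members than adding GSK591 to MS023. Co-treatment differed from GSK591 alone in 1152 of 22872 members at 2 days (5.04%, against 4.7% of all SE events), 314 higher (background 1.34%) and 838 lower (background 3.36%), and in 1440 of 23585 at 4 days (6.11%, against 5.75%), 669 higher (background 2.77%) and 771 lower (background 2.98%). From MS023 alone it differed in 2657 of 23249 at 2 days (11.4%, against 11.6%), 645 higher (background 2.7%) and 2012 lower (background 8.94%), and in 3293 of 23266 at 4 days (14.2%, against 14.2%), 1190 higher (background 4.91%) and 2103 lower (background 9.32%). With events without a skipping read kept in the moderation, these counts were 9, 11, 195 and 482. PICALM, a clathrin assembly protein, and EIF4H, a helper of the translation factor eIF4A, had exons that were lower with MS023 than with GSK591 at 4 days (ΔΨ of GSK591 minus MS023 0.160 ± 0.016 and 0.063 ± 0.006, both called). For PICALM (150 nt) Ψ was 0.396, 0.377 and 0.389 with 4-day DMSO, 0.332, 0.314 and 0.278 with GSK591, 0.145, 0.149 and 0.152 with MS023 and 0.092, 0.106 and 0.115 with both. The groups did not overlap, and co-treatment was lower than MS023 alone (ΔΨ -0.044 ± 0.007, adjusted p = 0.0032, and 0.11 with events without a skipping read kept in). For EIF4H (60 nt) Ψ was 0.286, 0.299 and 0.231, then 0.219, 0.237 and 0.222, 0.166, 0.167 and 0.157, and 0.074, 0.086 and 0.079 in the same order. Co-treatment was again the lowest group (ΔΨ -0.084 ± 0.005 against MS023, called), while the GSK591 libraries overlapped with DMSO and their call was lost without any 1 of 4 libraries.

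Members of 8 gene lists were counted, with all members as the base, at 4 days. Over all SE events the shares called were 10.6% with GSK591, 4.28% with MS023 and 14.6% with both. In genes of the cytoskeleton and cell junctions 53 of 335 events passed the test after 4 days of GSK591 (15.8%, against 10.3% of all members). For MS023 there were 36 of 321 (11.2%, against 4.51%) and for co-treatment 82 of 322 (25.5%, against 14.6%). Of the 82, 61 were lower. For endocytosis and vesicle traffic the counts in the same order were 46 of 309 (14.9%), 29 of 300 (9.67%) and 66 of 305 (21.6%). Kinases and signalling proteins had 44 of 286 (15.4%), 20 of 293 (6.83%) and 65 of 291 (22.3%), and RNA-binding proteins 55 of 369 (14.9%), 31 of 338 (9.17%) and 80 of 351 (22.8%). These lists lay above the share of all members with each treatment. Cell surface and matrix genes had 50 of 275 (18.2%), 18 of 251 (7.17%) and 50 of 281 (17.8%), and chromatin and transcription genes 44 of 351 (12.5%), 26 of 338 (7.69%) and 66 of 348 (19.0%). Arginine methyltransferases with their partners had 7 of 48 (14.6%), 6 of 39 (15.4%) and 7 of 43 (16.3%). Apoptosis and cell cycle genes lay below the share of all members with GSK591, at 18 of 220 (8.18%), and with co-treatment, at 24 of 207 (11.6%), and near it with MS023, at 12 of 229 (5.24%). The median ΔΨ over the tested events of a list lay between -0.00449 and -0.000431 for 4-day co-treatment, against -0.00165 over all members. The lists hold genes known for alternative exons, and no difference between a list and the other members was tested.

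In the cytoskeleton list SPTAN1, a spectrin chain of the membrane skeleton, had an exon of 60 nt with Ψ of 0.450, 0.465 and 0.439 with 4-day DMSO and 0.194, 0.228 and 0.205 with co-treatment (ΔΨ -0.242 ± 0.012, adjusted p = 6.6e-14). In the traffic list the exon of REPS1, which binds endocytic proteins, went from 0.338, 0.343 and 0.380 to 0.075, 0.052 and 0.079 (81 nt, ΔΨ -0.285 ± 0.016, adjusted p = 4e-11). All co-treated libraries lay below the controls in both. VPS29, a retromer subunit, had an untranslated exon of 90 nt that was rarely included, with 0.066, 0.053 and 0.108 in 4-day DMSO and 0.000, 0.002 and 0.006 with co-treatment (ΔΨ -0.073 ± 0.017, adjusted p = 4.1e-08). It was called lower in all 8 comparisons, but only the calls for 4-day co-treatment and 7-day GSK591 held with each library left out in turn.

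Among the kinases IRAK1, which acts downstream of Toll-like and interleukin-1 receptors, had an exon of 66 nt with Ψ of 0.972, 0.979 and 0.982 in 4-day DMSO and 0.757, 0.766 and 0.702 with co-treatment (ΔΨ -0.236 ± 0.020, adjusted p = 6.7e-19). The exon was called lower in 7 of the 8 comparisons, by 0.0229 to 0.236, and calls with MS023 alone were among them. Its Ψ was at least 0.938 in every MS023 library. MAPK9, the kinase JNK2, had an untranslated exon of 93 nt that went from 0.420, 0.425 and 0.429 to 0.099, 0.099 and 0.110 with co-treatment (ΔΨ -0.322 ± 0.004, adjusted p = 9.6e-13). MPRIP, a regulator of myosin phosphatase, had an exon of 120 nt with ΔΨ of -0.086 ± 0.013 for GSK591 and 0.033 ± 0.008 for MS023 at 2 days, the latter lost without any 1 of 4 libraries.

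In chromatin and transcription genes the exon of SMARCC2, a SWI/SNF subunit, was opposite at 7 days. Its 66 nt had Ψ of 0.714, 0.775 and 0.653 in DMSO, 0.501, 0.404 and 0.388 with GSK591 and 0.841, 0.893 and 0.842 with MS023. The 3 groups did not overlap (ΔΨ -0.283 ± 0.050, adjusted p = 2.4e-13, and 0.144 ± 0.039, adjusted p = 0.00055). The MS023 call was lost without any 1 of 5 libraries. TAF6, a subunit of the transcription factor TFIID, had an untranslated exon of 132 nt with 0.198, 0.191 and 0.200 in 4-day DMSO, 0.449, 0.368 and 0.466 with GSK591 and 0.086, 0.114 and 0.076 with MS023 (ΔΨ 0.231 ± 0.030, adjusted p = 3.6e-08, and -0.104 ± 0.011, adjusted p = 8.8e-07). DNMT3B, a de novo DNA methyltransferase, fell from 0.891, 0.972 and 0.927 to 0.252, 0.410 and 0.615 with 4-day co-treatment (126 nt, ΔΨ -0.504 ± 0.108, adjusted p = 7.3e-10), where the co-treated libraries differed widely among themselves.

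The list of RNA-binding proteins held genes with a part in splicing. SNRNP70, the 70K protein of the U1 snRNP, had an exon of 72 nt found only in transcripts not typed as protein-coding. This exon was close to absent in DMSO, with Ψ of 0.006, 0.009 and 0.008 at 7 days. It was at 0.124, 0.128 and 0.123 with 7 days of GSK591 and at 0.049, 0.038 and 0.032 with MS023. The GSK591 libraries stood apart (ΔΨ 0.118 ± 0.002, called, with at least 846 reads per library). PTBP1, a repressor of exons with pyrimidine-rich acceptors, had an exon of 78 nt with 0.678, 0.719 and 0.669 in 4-day DMSO and 0.499, 0.523 and 0.502 with co-treatment (ΔΨ -0.181 ± 0.017, adjusted p = 1.9e-13).

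The targets of the inhibitors and their partners also held members. PRMT1, the main Type I enzyme, had an exon of 54 nt with 0.095, 0.085 and 0.108 in 4-day DMSO, 0.057, 0.077 and 0.057 with GSK591 and 0.041, 0.043 and 0.045 with co-treatment (ΔΨ -0.053 ± 0.007, adjusted p = 1.4e-08). The 4-day GSK591 call of -0.032 was lost without the first or the third GSK591 library. CLNS1A, a PRMT5 partner that hands over Sm proteins, had an exon of 102 nt that was almost always included in 4-day DMSO (0.999, 0.997 and 0.998) and reached 0.932, 0.922 and 0.932 with co-treatment (ΔΨ -0.069 ± 0.003, adjusted p = 7e-13). PRMT7, which monomethylates arginines, had an exon of 84 nt at 0.876, 0.867 and 0.922 in 4-day DMSO and at 1.000 in each library with co-treatment (ΔΨ 0.112 ± 0.017, adjusted p = 2.8e-06).

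Among apoptosis and cell cycle genes the exon of ECT2, which acts in cell division, rose from 0.649, 0.657 and 0.602 to 0.850, 0.877 and 0.831 with 4-day co-treatment (93 nt, ΔΨ 0.217 ± 0.022, adjusted p = 2.6e-11). MDM2, the ubiquitin ligase of p53, had a rarely included exon of 93 nt with 0.087, 0.087 and 0.078 in 4-day DMSO and 0.024, 0.028 and 0.020 with GSK591 (ΔΨ -0.060 ± 0.004, adjusted p = 1.3e-06). In CDK5RAP2, a centrosome protein, an exon of 96 nt fell with MS023 from 0.852, 0.794 and 0.847 to 0.678, 0.637 and 0.677 (ΔΨ -0.167 ± 0.023, adjusted p = 9e-05) but not detectably with GSK591 at 4 days (ΔΨ -0.033 ± 0.025, adjusted p = 0.51), and the inhibitors differed directly (ΔΨ 0.134 ± 0.021, adjusted p = 0.012, and 0.13 with events without a skipping read kept in the moderation).

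At 7 days of GSK591 the largest rises among the exons named here were in SVIL and SMPD4. SVIL, supervillin, ties actin to the membrane, and its exon of 171 nt went from 0.127, 0.099 and 0.159 to 0.621, 0.679 and 0.618 (ΔΨ 0.511 ± 0.026, adjusted p = 2.4e-24), while MS023 libraries, at 0.152, 0.198 and 0.210, overlapped with DMSO. SMPD4, a sphingomyelinase, went from 0.278, 0.273 and 0.236 to 0.720, 0.707 and 0.698 with an exon of 87 nt (ΔΨ 0.446 ± 0.015, called). The exon of NPIPA1, also named by its size, belongs to a family of near-identical genes, and its 4-day GSK591 libraries at 1.000, 0.409 and 0.372 disagree among themselves, so its values are uncertain.

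Among the other exons with large changes, that of RAD52, a recombination protein, had few reads (at least 37 per library) and Ψ of 0.848, 0.877 and 0.928 with 4-day DMSO against 0.236, 0.188 and 0.220 after 2 days of co-treatment. The groups stood far apart (102 nt, ΔΨ -0.669 ± 0.027, adjusted p = 7.1e-13), but Ψ in DMSO was lower at 7 days, with 0.477, 0.670 and 0.675, and no 7-day difference was called. BRF1, a subunit of an RNA polymerase III initiation factor, had an exon of 150 nt that fell with MS023 at 4 days from 0.926, 0.891 and 0.899 to 0.539, 0.450 and 0.499 (ΔΨ -0.409 ± 0.028, adjusted p = 7.1e-18). Its small rise with GSK591 (0.068, adjusted p = 0.029) was lost without any 1 of 5 libraries. CACNA1G, a T-type calcium channel, had an exon of 69 nt with 0.747, 0.815 and 0.740 in 4-day DMSO, 0.181, 0.173 and 0.181 with GSK591 and 0.969, 0.922 and 0.939 with MS023. These were the widest apart of the named exons at 4 days (direct ΔΨ -0.765 ± 0.014), and the MS023 rise (0.176, adjusted p = 0.0011) was lost without any 1 of its 3 libraries. NDE1, a dynein regulator, had an exon of 126 nt that went from 0.415, 0.433 and 0.375 to 0.680, 0.726 and 0.842 with 7 days of MS023 (ΔΨ 0.342 ± 0.051, adjusted p = 4.7e-12).

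**Figure D5:**
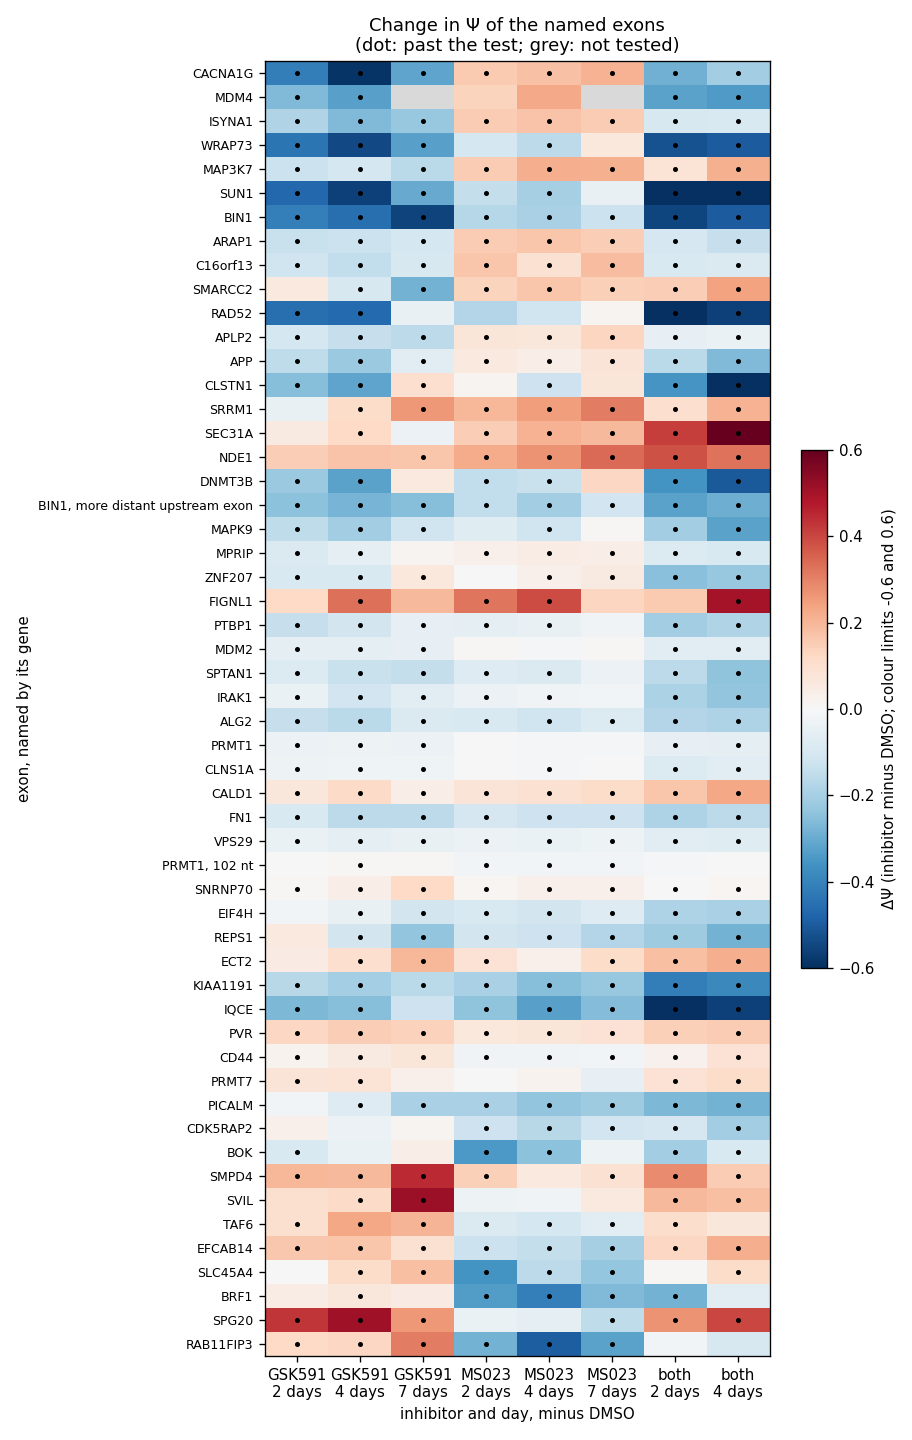
ΔΨ of the named exons other than NPIPA1 (rows) in the 8 comparisons with DMSO (columns), with a dot where the test was passed and grey where a library had fewer than 10 reads. Rows run from those lower with GSK591 than with MS023, such as CACNA1G and MAP3K7, to the reverse, such as RAB11FIP3, and SUN1 and SEC31A are among the darkest cells under 4-day co-treatment (-0.653 and 0.656).

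Frame-shifting exons with long introns, the most similar events, gave close shares. With GSK591 at 4 days 9.35% of them were called, against 10.3% of members, and 25.0% and 26.6% of the calls were higher. Exons between short introns were called in 19.7%, of which 6.33% were higher, and at 7 days 6.61% of their calls with GSK591 were higher, against 47.5% for members. The difference between these classes was not tested. Just inside the intron limit, within 50 nt of it, 46 of 247 members were called with GSK591 at 4 days, 10 of them higher. Just outside it 53 of 268 in-frame events were called, 3 of them higher. Of exons of 30 nt, the shortest members, 17 of 112 were called, and of those of 27 nt, just outside, 13 of 108. Over all SE events 10.6% were called, and no difference across a limit was tested.

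The called members differed in sequence, length, coding share and introns from the others as a description. The base before the 5′ splice site was G in 76.6% of the exons lower with GSK591 at 4 days, in 85.5% of those higher and in 80.0% of members not called. For 4-day co-treatment the shares were 71.8%, 85.2% and 80.7%. Over all SE exons tested G stood there in 79.7% for GSK591 at 4 days and in 79.5% for 4-day co-treatment. Of the printed exons those of BIN1 and APP end in C and the others in G, those of SUN1 and CLSTN1 included. Exons higher with MS023 at 4 days had a median length of 93 nt and those lower one of 123 nt, against 117 nt among members not called. The first 6 bases of the intron were GTAAGT in 6.38% of the exons higher with MS023 and in 13.4% of those not called, among 13.2% of all member exons. With GSK591 at 4 days 60.9% of the exons higher were whole coding, against 80.0% of those lower and 83.1% of members not called. Among all SE exons tested 76.2% were whole coding. For 4-day co-treatment the shares of members were 65.2%, 81.4% and 83.5% in the same order. A short neighbouring intron was present in 33.4%, 35.4% and 24.2% of these groups with GSK591 at 4 days. Exons share genes and called groups differ in Ψ, and no test was made on these shares.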

How the data were processed

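Poly(A)-RNA seq of 30 libraries was used, and the other 66 of the 96 samples were not analysed here. Per the labels the authors used Trim Galore 0.6.5, STAR 2.4.2a, Picard 2.3.0, deepTools 3.3.1 and rMATS 4.0.2 with hg19 (GRCh37). The deposited tables hold, for each SE event and library, whole-number counts of junction and exon-body reads supporting inclusion and skipping, an effective length for each form, and Ψ as a fraction computed by the authors from these counts. Each cell holds 3 values in a fixed order, here named by their place in that order. The tables also hold the authors' own p-values, FDR and differences in inclusion, which were not used. Recomputed Ψ lay within 0.0005 of the deposited Ψ, and the DMSO counts of the tables that share them were identical in all 488696 events compared. Counts include exon-body reads, so reads from overlapping transcripts can enter inclusion. The DMSO of the 7-day tables was taken as the 7-day DMSO group from the labels.

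A quasi-binomial logistic model was fitted to the counts of each SE event with at least 10 reads in every library, in R 4.3.3. The Pearson dispersion was moderated across events with squeezeVar of limma 3.58.1 and not allowed below 1, and p-values of the F test were adjusted by Benjamini-Hochberg over all SE events tested. Events without a skipping read, or without an inclusion read, were left out when the prior was estimated, and were never called. This was decided after their effect on the counts had been seen. The counts for inhibitors against DMSO were the same with them kept in. Tables were read with Python 3.11.15, pandas 2.3.3, numpy 2.4.6 and version 1.17.8 of the R package data.table, and figures drawn with matplotlib 3.10.9. The fit was also run on simulated counts, without the choice of events for the prior being compared, and the outcome is not given here. Named exons were, for each comparison with DMSO, the 3 with the largest change among called members with at least 50 reads in every library, then the 10 called in most comparisons, then the 4 called in most comparisons in each gene list, of which some are not reported here. The members, gene lists and naming rule were chosen with earlier results of these data known. Sequences and GENCODE annotation were read from the GRCh37 reference. Alternatives tried were other read minimums, limma on log2 odds with an offset of 0.5, other ways to moderate the dispersion, 1 event per exon, a minimum change in Ψ, Ψ without effective lengths and leaving out each library. Counting precision depended on the reads of each event, and not on the sums over SE events of 45420420 to 97845379 per library.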

Additional observations from a re-analysis of the deposited data

Results flagged for a closer look

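Named exons were singled out where GSK591 and MS023 had called changes of opposite direction against the same DMSO libraries and also differed when tested directly. There were 43 such differences in 18 exon events, 11 of which met this at all 3 days. Many of them rest on 1 library or on the fit. In 32 of the 43 the call against DMSO of 1 or both inhibitors was lost when 1 library was left out. The 11 in which both calls held were those of APLP2 at 2, 4 and 7 days, ARAP1 at 2 and 4 days, ISYNA1 at 4 and 7 days, TAF6 at 4 days, and MAP3K7, RAB11FIP3 and CD44 at 7 days. Among those that did not hold were all differences of CACNA1G, EFCAB14, C16orf13, SMARCC2, SLC45A4 and APP. With events without a skipping read kept in the moderation of the dispersion, 26 of the 43 direct differences stayed called. Among the 11, those of APLP2 at 2 days, ARAP1 at 4 days and ISYNA1 at 7 days did not. The values below are the Ψ with GSK591 minus the Ψ with MS023, at 2, 4 and 7 days where 3 are given.

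Lower with GSK591 than with MS023 were the exons of CACNA1G (-0.5689, -0.7651 and -0.5217), ISYNA1 (-0.3357, -0.4361 and -0.3808), ARAP1 (-0.2826, -0.2975 and -0.2536) and C16orf13 (-0.283, -0.2397 and -0.2791). MAP3K7 (-0.279, -0.3244 and -0.3744), APP (-0.214, -0.2597 and -0.1412) and APLP2 (-0.1772, -0.2043 and -0.2846) showed the same order. MPRIP met it at 2 and 4 days (-0.1186 and -0.1017), SMARCC2 at 4 and 7 days (-0.4279 at 7 days and -0.2602 at 4 days), and ZNF207 at 4 days (-0.1215).

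Higher with GSK591 than with MS023 were the exons of RAB11FIP3 (0.4065, 0.6166 and 0.627), EFCAB14 (0.293, 0.3093 and 0.2927), TAF6 (0.1836, 0.3356 and 0.266) and CD44 (0.0446, 0.0781 and 0.0885). SLC45A4 met it at 4 and 7 days (0.2663 and 0.4153), SPG20 at 7 days (0.4115), BRF1 at 4 days (0.4769) and the PRMT1 exon of 102 nt at 4 days (0.0231).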

How the results depend on the processing

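No paired analysis was possible because the columns carry no replicate numbers that tie libraries of different groups together. Counts of called members are given here in the order GSK591, MS023 and co-treatment at 2 days, the same at 4 days, then GSK591 and MS023 at 7 days. They depended most on how the dispersion was estimated. With the dispersion not moderated they were 0, 0, 22, 0, 1, 129, 0 and 0, where 2405, 1636, 3103, 1913 and 1459 members had an unadjusted p under 0.05 in the 5 comparisons with a count of 0. With limma on log2 odds they were 0, 0, 972, 297, 1, 1255, 44 and 0, with 3168, 2169 and 2577 at an unadjusted p under 0.05 where the count was 0. By limma the share of called members that were higher was 9.67% for co-treatment at 2 days, 19.5% for GSK591 and 24.8% for co-treatment at 4 days, and 43.2% for GSK591 at 7 days. With moderation along the depth, added after seeing the data, the counts for single inhibitors were 1098, 421, 1871, 556, 1123 and 632, and those for co-treatment stayed within 1.5 times. With a ΔΨ of at least 0.05 they were 1204, 640, 2389, 1796, 800, 2529, 1269 and 807.

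For GSK591 against MS023 at 2, 4 and 7 days the counts were 3, 78 and 0 without moderation (2456 at an unadjusted p under 0.05 for the 0), 106, 1069 and 1009 with limma, and 1499, 2072 and 1571 with a ΔΨ of at least 0.05. For co-treatment against GSK591 at 2 and 4 days they were 0 (1838 unadjusted) and 2 without moderation, 0 and 0 with limma (2553 and 3098 unadjusted), and 696 at 2 days with moderation along the depth. For co-treatment against MS023 they were 11 and 111, 328 and 1198 with limma, and 1749 and 2181 with the ΔΨ minimum. For DMSO at 7 against 4 days they were 0 (1147 unadjusted), 0 with limma (3751 unadjusted), 282 along the depth and 430 with the ΔΨ minimum. With events without a skipping read kept in the prior, also added later, these comparisons gave 87, 371 and 109, then 9 and 11, then 195 and 482, then 0 for DMSO (1465 unadjusted).

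With 1 library left out the counts ranged from 991 to 1198, 203 to 780, 1841 to 2873, 1381 to 1895, 322 to 764, 2104 to 2859, 688 to 1044 and 438 to 613 against DMSO. They ranged from 1186 to 1731, 1815 to 2348 and 1125 to 1622 for GSK591 against MS023, 547 to 868 and 830 to 1082 for co-treatment against GSK591, 1599 to 1942 and 1953 to 2531 against MS023, and 51 to 466 for DMSO. These fits hold fewer samples. The share of called members that were higher ranged from 16.4% to 19.7%, 23.0% to 32.7%, 13.6% to 18.3%, 22.4% to 26.7%, 30.7% to 37.5%, 25.5% to 31.0%, 44.2% to 50.5% and 46.6% to 57.1%. Of 363 called values of named exons, 45 were also called by limma and 318 were not, and 131 lost the call at least once with 1 library left out. None changed direction in these fits. The cause of the differences between the ways of estimating the dispersion was not tested.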

Other observations

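The exon of MDM4, a p53 inhibitor related to MDM2, was covered by few reads, with at least 10 in each 4-day library, and is therefore given as values. Its 39 nt had Ψ of 0.234, 0.421 and 0.475 with 4-day DMSO, 0.067, 0.052 and 0.026 with GSK591, 0.384, 0.665 and 0.760 with MS023, and 0.000, 0.075 and 0.037 with both. The GSK591 and co-treated libraries lay below all DMSO libraries (ΔΨ -0.328 ± 0.074, adjusted p = 0.00024, and -0.339 ± 0.076, adjusted p = 0.00021, quasi-binomial model), and the MS023 libraries overlapped with DMSO. With either inhibitor at 7 days a library of this exon held as few as 4 to 6 reads, so that these groups were not tested against DMSO.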
